A study of Mus musculus with 28 samples.

Results

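The genes described here are those of the liver X receptor (LXR) pathway and of cholesterol efflux: the receptors Nr1h3 (LXRα) and Nr1h2 (LXRβ), the exporters Abca1 and Abcg1, the lipoprotein Apoe, the ubiquitin ligase Mylip, the phospholipid enzyme Lpcat3 and the lipase Lpl. They were chosen by name, with earlier results of these data known. Of the 8 genes, 7 had a probe set assigned to them alone, out of 18193 genes measured. Nr1h2 had none and was not analysed here. The cells were primary lymph-node B-cell lymphomas that arose in C57BL/6 mice with the Emu-myc transgene, in which Myc is driven in the B-cell lineage, and all, treated and untreated alike, carried a Bcl2 retrovirus (MSCVpuro) that blocks apoptosis and had been selected with puromycin. They were grown on gamma-irradiated NIH 3T3 fibroblasts, and the labels name no step that removed these feeder cells or other host cells before RNA extraction. Each of 14 lymphomas gave 1 culture exposed to Adriamycin (ADR, or doxorubicin, which poisons topoisomerase and breaks DNA) at 0.05 µg/ml over 5 days, and 1 untreated culture, 28 arrays in all. The labels mark the treated cultures as senescent (treatment-induced senescence) and describe 11 of the lymphomas as samples of an earlier series. Each lymphoma is called by its identifier.

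LXRs are nuclear receptors that sense oxysterols, the oxidised products of cholesterol. Paired with a retinoid X receptor (RXR) on DNA, they switch on genes that move cholesterol out of the cell and lower its uptake, and loaded macrophages are the cells best known for using this route. Abca1 passes cholesterol and phospholipid to lipid-poor apolipoprotein A-I, Abcg1 passes cholesterol to larger HDL particles, and Apoe is both an acceptor and a ligand for lipoprotein receptors. Mylip (IDOL) marks lipoprotein receptors for degradation, Lpcat3 puts polyunsaturated acyl chains into phospholipids, and Lpl frees fatty acids from triglyceride-rich lipoproteins. The sterol-regulated factor Srebf2 works in the opposite direction, raising cholesterol synthesis when sterol is short.

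The classic LXR binding site is a direct repeat of AGGTCA with 4 bases between the copies, and of the 6 members with a promoter in the RefSeq table (all but Abcg1 and Lpl, which were not searched) Abca1 had the closest match. It is shown because Abca1 was one of the members with the largest change. In the stretch of 250 bases before the start site of Abca1 (RefSeq, GRCm38.p6, chr4:53159896-53160145, minus strand), written 5′ to 3′ on the gene's strand, capitals mark the match, which lies on the opposite strand.
Abca1: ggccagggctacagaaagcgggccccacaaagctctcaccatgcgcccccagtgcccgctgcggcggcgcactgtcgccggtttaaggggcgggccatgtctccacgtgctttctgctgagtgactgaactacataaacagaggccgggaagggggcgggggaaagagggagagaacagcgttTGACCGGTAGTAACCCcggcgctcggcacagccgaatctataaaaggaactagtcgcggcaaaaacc

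Read on its own strand, this match is set below beside the closest ones of Srebf1 and Fasn, LXR targets of fatty acid synthesis, with the repeated letters in capitals and the spacer in lower case.
Abca1: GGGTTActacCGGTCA
Srebf1: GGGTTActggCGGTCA
Fasn: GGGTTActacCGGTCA
They lie at chr4:53159947-53159962, chr11:60210638-60210653 and chr11:120824757-120824772 (GRCm38.p6, plus strand as written), at positions -67, -182 and -225 from the start site. Each differs from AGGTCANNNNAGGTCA, searched on both strands, at 3 of 12 defined letters. A match at least that close was present in 21.9% of the 32851 RefSeq promoters of mouse genes (250 bases before to 50 after the start), so closeness to the consensus alone is common. The 14 letters that the Abca1 and Srebf1 sites share, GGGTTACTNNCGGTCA, were found in 3 of the 32851 promoters (0.00913%), those of Abca1, Srebf1 and Fasn, in a search chosen after the sites had been compared. These 3 hits were fixed beforehand, because the letters came from the Abca1 and Srebf1 sites and the Fasn site is the same as that of Abca1. The search shows only that no other promoter in the table held the letters. The closest matches in Apoe, Lpcat3, Nr1h3 and Nr1h2 differed at 4 letters and that of Mylip at 5. A match is a description of the letters and not evidence of binding, and the window is short.

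After ADR, 3 of the 7 measured genes were higher, 1 was lower and 3 did not pass the test, which was limma with lymphoma as a block and Benjamini-Hochberg adjustment over all genes at 0.05. Lpl and Abca1 rose more than 3-fold, the second exporter Abcg1 rose by less and Lpcat3 fell slightly. Apoe, Mylip and the receptor gene Nr1h3 did not pass. Among all 18193 genes 15.3% were called higher and 13.4% lower, and the median change was -0.0011, against 0.54 for the 7 genes. All changes are log2 differences, ADR minus untreated within a lymphoma, given as mean ± standard error (SE) over 14 pairs, and levels are log2 values with standard deviations (SD).

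**Figure D1:**
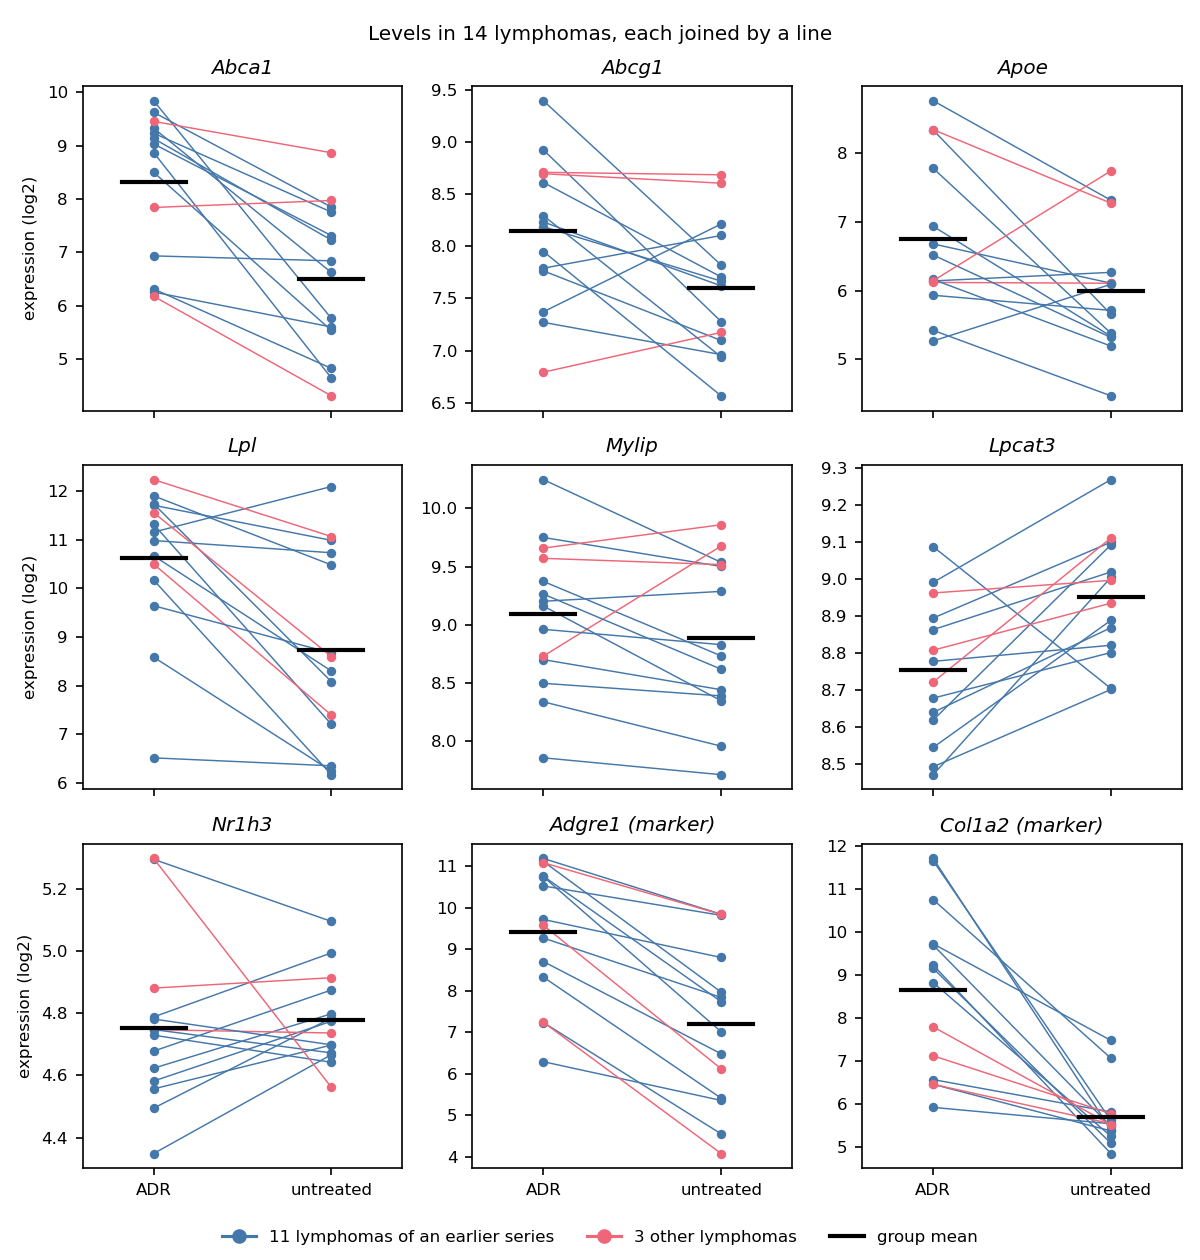
Expression (log2, vertical axis) of the 7 measured genes and of the marker genes Adgre1 and Col1a2 in ADR and untreated cultures, with a line for each of 14 lymphomas and a black bar for each group mean (each panel has its own scale). Abca1 averaged 8.33 in ADR and 6.51 in untreated cultures, and Lpl 10.6 and 8.74, whereas Nr1h3 lay between 4.35 and 5.30 in every array.

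The exporter Abca1 ranged from 6.18 through a median of 8.95 to 9.84 in ADR cultures, and from 4.31 through 6.73 to 8.87 in untreated ones. The groups overlapped, although 8 of 14 ADR arrays lay above every untreated array. None of the 7 genes had every ADR array above every untreated array, which 11 of all genes had (0.0605%). Genes with every ADR array below every untreated array were not counted. Abca1 averaged 8.33 ± 1.35 in ADR and 6.51 ± 1.41 in untreated cultures (SD, n = 14 each), a change of 1.82 ± 0.32 (3.52-fold, limma adjusted p = 5.10e-04). The rise was seen in 13 of 14 lymphomas and reached at least 1 log2 unit in 10. It was largest in 2581 (4.23) and 3769 (4.08) and near 0 in 1467 (0.093), and in 9583 Abca1 stood at -0.13. The other 2 Abca1 probe sets gave 0.88 ± 0.27 (limma adjusted p = 0.0216) and 0.94 ± 0.29 (0.0261), smaller values at a lower signal.

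Abcg1 lay between 6.79 and 9.39 in ADR cultures, with a median of 8.21, and between 6.57 and 8.68 in untreated cultures, with a median of 7.64. The groups overlapped widely. Its change was 0.54 ± 0.19 (1.45-fold, limma adjusted p = 0.0443), higher in 11 of 14 lymphomas. Lymphomas 3594 (1.64), 3769 (1.57), 6054 (1.38) and 5766 (1.35) rose most, and 1467 (-0.84), 5043 (-0.38) and 403 (-0.31) went down. This call was marginal: the limma adjusted p lay between 0.0514 and 0.0941 without any 1 of 9 lymphomas (1570, 2581, 2949, 3594, 3769, 5560, 5766, 6054 or 7050), and the second Abcg1 probe set read 0.33 ± 0.17 (0.192). Across the 14 lymphomas the changes of both exporters correlated at r = 0.58, a description of arrays that share their RNA. With the Mylip change, r was 0.63 for Abcg1 and 0.48 for Abca1.

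Apoe went in both directions. In ADR cultures it ranged from 5.27 through 6.34 to 8.76, and in untreated cultures from 4.47 through 5.90 to 7.74. The highest changes were 2.68 in lymphoma 1570 and 2.40 in 2949, and the lowest were -1.60 in 9584 and -0.83 in 5560. On average the change was 0.76 ± 0.28 with 11 of 14 lymphomas higher, and it did not pass (limma adjusted p = 0.0579). Without 9584 the change was 0.94 ± 0.25 (0.0105) and without 5560 it was 0.88 ± 0.28 (0.0307), both past the threshold. Its change did not go with that of Abca1 (r = -0.011, n = 14 lymphomas).

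Lpl had the widest spread of the 7 genes. Its level ranged from 6.51 through 11.1 to 12.2 in ADR cultures and from 6.17 through 8.45 to 12.1 in untreated ones, so that some untreated cultures already stood at the treated level. The change was 1.88 ± 0.38 (3.68-fold, limma adjusted p = 0.00149), higher in 13 of 14 lymphomas. The largest changes were 4.12 in 3594 and 4.01 in 1467. Lymphoma 403, the highest of the untreated cultures at 12.1, changed by -0.94. The second Lpl probe set gave 1.87 ± 0.38 (0.00176).

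**Figure D2:**
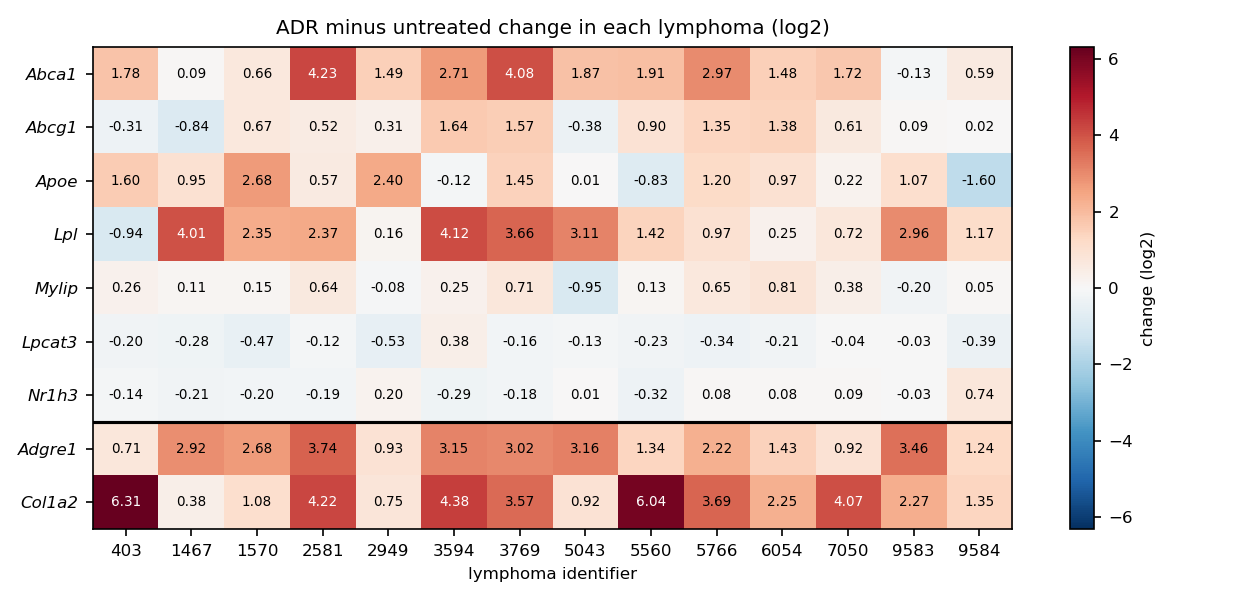
ADR minus untreated change (log2, colour and printed number) of the 7 genes and, under the line, of the markers Adgre1 and Col1a2, in each of 14 lymphomas. The largest Abca1 change was in 2581 (4.23) and the largest Apoe change in 1570 (2.68), and Lpcat3 is negative in 13 of 14.

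Mylip and Lpcat3 had changes well under 1 log2 unit on average. Mylip lay between 7.86 and 10.2 in ADR cultures and between 7.71 and 9.86 in untreated cultures, and changed by 0.21 ± 0.11 (limma adjusted p = 0.204), with 11 of 14 lymphomas higher. Lymphoma 5043 went the other way by -0.95, and without it the value was 0.30 ± 0.09 (0.0196). Lpcat3 ranged from 8.47 to 9.09 in ADR cultures and from 8.70 to 9.27 in untreated ones. It fell in 13 of 14 lymphomas by a small amount, -0.20 ± 0.06 (0.872-fold, limma adjusted p = 0.0289), and rose in 3594 (0.38). Without 1570, 2949, 5766 or 9584 its adjusted p was between 0.0537 and 0.0569.

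Nr1h3, the receptor gene, gave a dim signal in both groups, and 37.1% of all genes had a lower mean. It stood between 4.35 and 5.30 in ADR cultures and between 4.56 and 5.10 in untreated cultures. Over all 28 arrays, 65.1% of all probe sets averaged below 6. Its change was -0.026 ± 0.073 (limma adjusted p = 0.843), and 6 of 14 lymphomas were higher. Lymphoma 9584 stood apart with 0.74, and the other 13 lay between -0.32 and 0.20. At this signal a change in the receptor gene may not be detectable. Among the 8814 genes with a mean of at least 6, where Nr1h3 was not tested, 23.5% were called higher and 24.6% lower, and with no block for lymphoma 10.6% and 9.47% of all genes were.

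Some arrays stood apart. The ADR array of lymphoma 1570 read 0.92 for both actin and Gapdh in the difference between 3′ and 5′ control probe sets, a measure of RNA quality whose medians over ADR arrays were 0.34 for actin and 0.058 for Gapdh. Without 1570 Abca1 changed by 1.91 and Apoe by 0.61 (limma adjusted p = 0.112). In lymphoma 9584 the Y-linked gene Eif2s3y read 8.61 in the ADR and 4.74 in the untreated culture, whereas Kdm5d, also Y-linked, read 7.20 and 7.17. Values without 9584 are given above for Apoe, and Nr1h3 changed by -0.084 without it.

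Markers of macrophages and fibroblasts also rose after ADR. The marker counts of this paragraph stand beside 15.3% higher and 13.4% lower among all genes. Of 15 macrophage markers, 9 rose after ADR and 0 fell, and their summed signal (linear scale) ranged from 2372 to 39045 in ADR cultures and from 748 to 20879 in untreated ones, higher in all 14 lymphomas. The macrophage genes Cd163 (2.87 in ADR and 2.83 in untreated cultures) and Mrc1 (3.89 and 3.81) were dim in both groups, while Adgre1, a surface receptor gene used to mark mouse macrophages, rose by 2.21 ± 0.26 in 14 of 14 lymphomas (limma adjusted p = 1.75e-05). Of 18 fibroblast markers, 16 rose and 0 fell, with sums from 2508 to 38596 in ADR and from 980 to 4782 in untreated cultures. S100a4 weighs heavily in the untreated sums, since it averaged 10.1 there and the other fibroblast markers averaged between 3.14 and 7.12. Col1a2, a collagen gene of the feeder layer, rose by 2.95 ± 0.47 in all 14 (limma adjusted p = 2.18e-04). The B-cell markers Cd79a, Cd79b and Blnk were bright in both groups. Their means ran from 10.2 to 11.7 in ADR and from 10.9 to 11.8 in untreated cultures. Of 7 B-cell markers 4 fell: Cd22 (-1.37), Cd79a (-0.72), Ebf1 (-0.62) and the dim Pax5 (-0.19). Cd79b (-0.27), Blnk (-0.039) and Ms4a1 (0.40) did not pass. The summed B-cell signal ranged from 3760 to 19484 in ADR and from 6989 to 15419 in untreated cultures. It was higher after ADR in 4 of 14 lymphomas. Markers of T cells did not pass in either direction (0 of 7), and of 7 granulocyte markers S100a8 and Camp rose. In such bulk samples, more cells of a type and more RNA per cell cannot be told apart, and the part of these markers in the members' changes is given only as correlations and covariate fits.

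The change of Lpl followed that of Adgre1 across the 14 lymphomas. Pearson r was 0.86 (permutation p = 2.30e-04, adjusted p = 0.00322 over 14 relations) and Spearman rho was 0.80 (permutation p = 9.10e-04, adjusted p = 0.0127). Leaving out 403 and 7050, which had the 2 lowest Adgre1 changes and the largest distance to their median, gave r = 0.81, and the earlier series alone gave r = 0.85 over its 11 lymphomas. The Adgre1 changes left a gap between 1.43 and 2.22: r was 0.68 among the 6 lymphomas below it and 0.42 among the 8 above. Lpl changed by between -0.94 and 1.42 in the 6, and by between 0.97 and 4.12 in the 8. Untreated levels showed the same relation, with r = 0.84 (permutation p = 3.00e-04, adjusted p = 0.00420) and rho = 0.76 (adjusted p = 0.0311). With Col1a2, the change of Lpl had r = -0.29 (adjusted p = 0.495).

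None of the other 6 genes had a change that correlated with either marker after adjustment over the 14 relations. Abca1 had r = 0.23 with Adgre1 (adjusted p = 0.600; rho = 0.20) and 0.52 with Col1a2 (permutation p = 0.0590, adjusted p = 0.315; rho = 0.58). Leaving out 403 and 5560, which had the 2 highest Col1a2 changes, the r of the Col1a2 relation was 0.72 for Abca1. It was 0.71 for Abcg1 (0.38 over all 14), 0.63 for Lpcat3 (0.43) and 0.60 for Mylip (0.42). Over the 11 lymphomas of the earlier series it was 0.50 for Abca1, 0.23 for Abcg1, 0.49 for Lpcat3 and 0.22 for Mylip. For Apoe r was 0.061 with Adgre1 and -0.21 with Col1a2. The Apoe value with Col1a2 was -0.20 without 403 and 5560, and -0.59 over the 11 lymphomas of the earlier series. The Adgre1 and Col1a2 changes did not follow each other (r = -0.22, permutation p = 0.443; rho = -0.13). Before treatment, Abca1 was higher where Adgre1 was (r = 0.69, adjusted p = 0.0379; rho = 0.64, adjusted p = 0.0690), and the faint Nr1h3 signal was lower (r = -0.67, adjusted p = 0.0379; rho = -0.72, adjusted p = 0.0361).

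**Figure D3:**
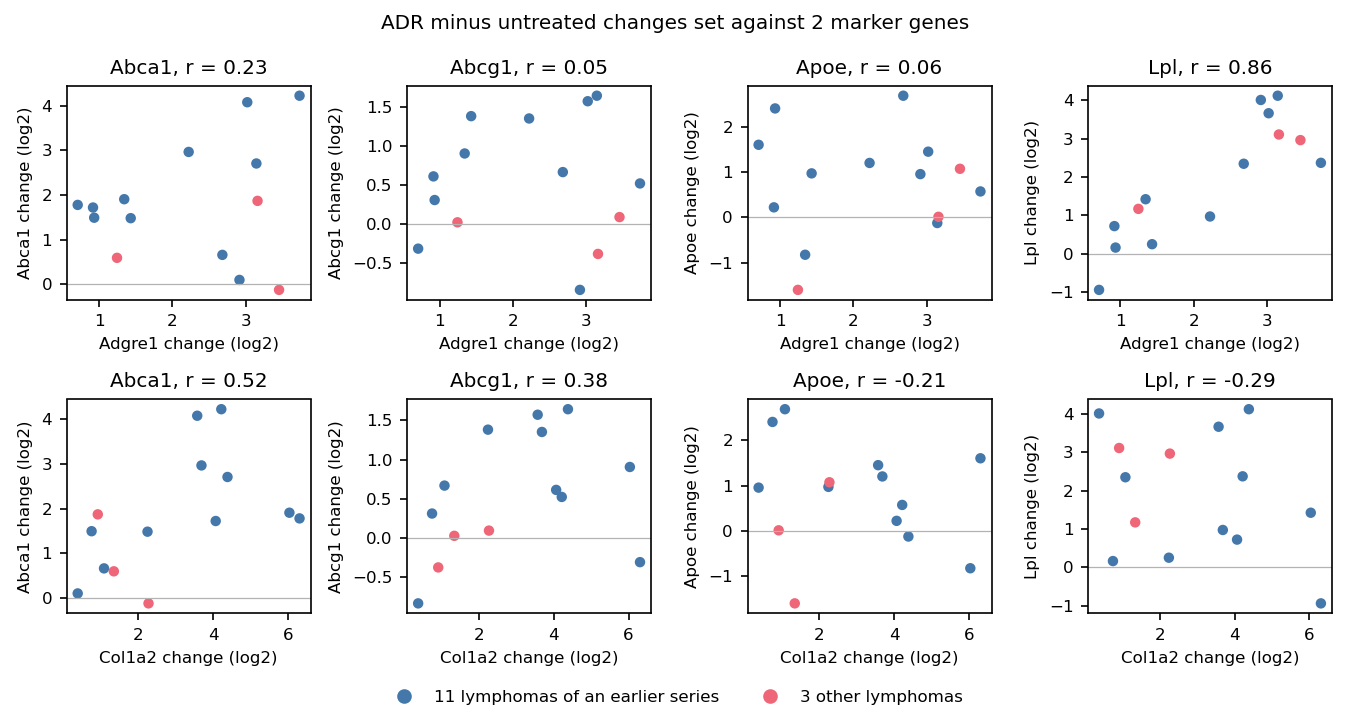
ADR minus untreated change (log2) of Abca1, Abcg1, Apoe and Lpl in 14 lymphomas against the change of Adgre1 (upper row) or Col1a2 (lower row), coloured by whether the lymphoma belongs to the earlier series. Lpl lies along a line with Adgre1 (r = 0.86), and the other panels show no relation past the adjusted threshold.

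With a marker's change as a covariate, the fitted value is that at no change of the marker, outside the measured range since Adgre1 changed by at least 0.71 and Col1a2 by at least 0.38. At no Adgre1 change Lpl stood at -0.90 ± 0.49 (limma adjusted p = 0.372), against 1.88 without the covariate. Abca1 was at 1.19 ± 0.77 (0.469), Abcg1 at 0.46 ± 0.46 (0.676) and Apoe at 0.61 ± 0.69 (0.719). That fit called 9 of all 18192 genes higher (0.0495%) and 9 lower (0.0495%), and 0 of the 7 members. At no Col1a2 change Lpl kept its call, at 2.56 ± 0.69 (0.0277), while Abca1 was at 0.78 ± 0.52 (0.423) and Abcg1 at 0.097 ± 0.334 (0.911). There 1020 genes were called higher (5.61%) and 833 lower (4.58%).

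The 11 lymphomas of the earlier series and the other 3 were also fitted apart, and no member's change differed between them past the threshold. Within the 11, Abca1 changed by 2.10 ± 0.35, Abcg1 by 0.71 ± 0.21, Lpl by 1.74 ± 0.45, Apoe by 1.01 ± 0.28 and Mylip by 0.36 ± 0.09, all 5 called by limma (adjusted p from 7.43e-04 to 0.0261). Within the 3, Lpl changed by 2.41 ± 0.40 and Abca1 by 0.78 ± 0.38. Abcg1 (-0.089), Apoe (-0.17) and Mylip (-0.36) were below 0 there, and 3 pairs called 1 of 18193 genes. For the difference between the 3 and the 11, limma gave Mylip -0.73 ± 0.22 (p = 0.00448, adjusted p = 0.864), Abca1 -1.33 ± 0.74 and Apoe -1.18 ± 0.65 (both adjusted p = 0.864). Over all genes that comparison called 1 (0.0055%).

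**Figure D4:**
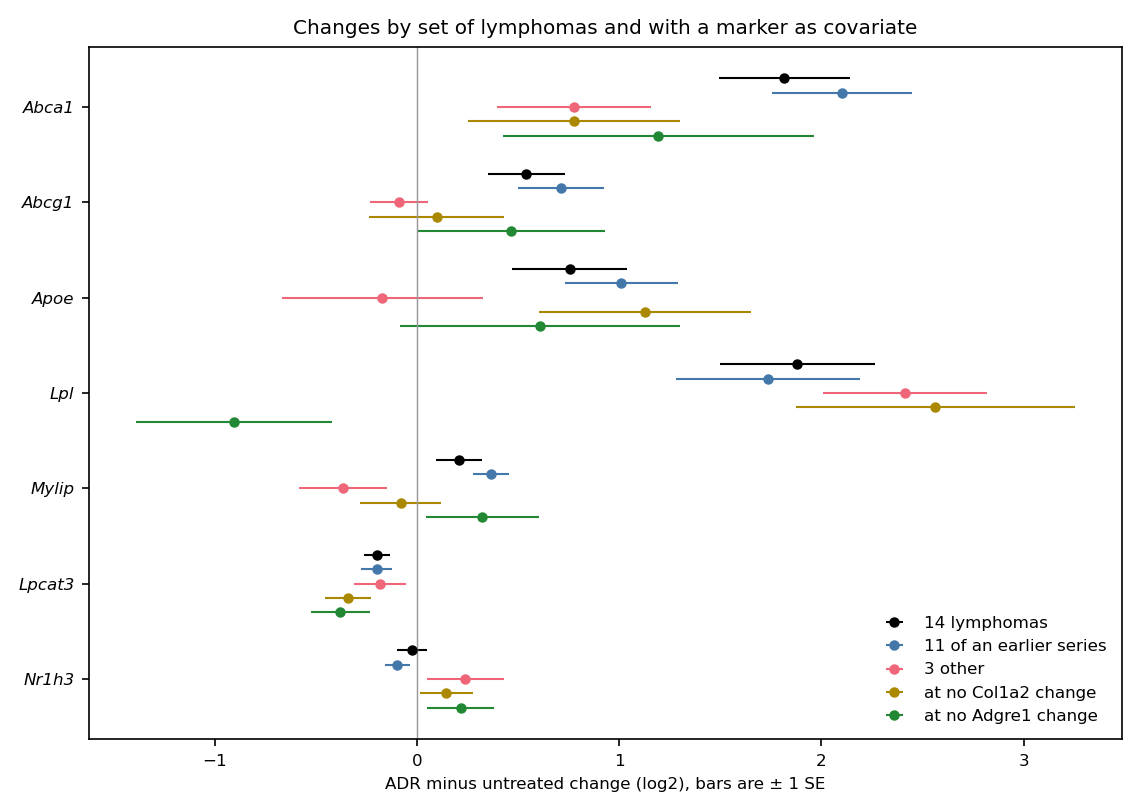
Change (log2) with bars of ± 1 SE for each gene over all 14 lymphomas, the 11 of the earlier series, the 3 others, and at no change of Col1a2 or Adgre1. Lpl is positive in every set except at no Adgre1 change (-0.90), and the Abcg1 values run from -0.089 to 0.71.

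A further list was drawn up as other LXR target genes, and whether LXRs act on each of them was not tested. Of its 19 measured genes, 4 rose, 1 fell and 14 did not pass (median 0.0255), beside 15.3% higher and 13.4% lower among all genes. The phospholipid transfer protein gene Pltp rose by 0.94 ± 0.27 (limma adjusted p = 0.0142), the lipase cofactor gene Apoc2 by 0.94 ± 0.29 (0.0241), the macrophage-secreted Cd5l by 0.50 ± 0.17 (0.0319) and the transporter gene Abca7 by 0.36 ± 0.11 (0.0160). Scd1, the stearoyl-CoA desaturase that LXR and Srebf1 induce in liver, fell by 1.11 ± 0.18 (2.10e-04), lower in 13 of 14 lymphomas. Srebf1 (-0.13 ± 0.09, 0.328) and Fasn (-0.074 ± 0.224, 0.851), whose promoters hold the same 14 letters as that of Abca1, did not pass.

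Of 10 RXR genes and cofactors, 2 rose and 2 fell, beside 15.3% and 13.4% of all genes: the acetyltransferase genes Ep300 (0.40 ± 0.07, limma adjusted p = 4.90e-04) and Crebbp (0.38 ± 0.12, 0.0213) rose, and Rxrb (-0.35 ± 0.08, 0.00306) and the corepressor component Hdac3 (-0.29 ± 0.07, 0.00484) fell. Rxra, the isoform abundant in myeloid cells, changed by 0.21 ± 0.11 (0.172). Among 7 enzymes that make or clear oxysterols, Hsd3b7, of bile acid synthesis, rose by 1.15 ± 0.21 (7.51e-04), and Ch25h, which makes 25-hydroxycholesterol, did not pass (0.0096 ± 0.0612, 0.932) and was dim.

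In the list of cholesterol trafficking and efflux 7 of 20 genes were higher and 2 lower (median 0.23), beside 15.3% and 13.4% of all genes. The lysosomal exporters Npc1 (1.04 ± 0.17, limma adjusted p = 2.26e-04, 14 of 14 lymphomas) and Npc2 (0.61 ± 0.13, 0.00185), the lysosomal acid lipase Lipa (0.98 ± 0.13, 4.96e-05) and the cholesteryl ester hydrolase Nceh1 (1.21 ± 0.16, 5.16e-05) were among them. So was Cav1, of caveolae, at 2.65 ± 0.45 (3.78e-04). The HDL receptor gene Scarb1 fell by 0.49 ± 0.09 (8.56e-04), and the sterol carrier gene Stard4, an Srebf2 target, fell by 1.52 ± 0.18 in all 14 (1.94e-05).

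Genes of sterol synthesis were lower or did not pass. Of 19 measured genes 11 fell and 0 rose (median -0.55), beside 13.4% lower and 15.3% higher among all genes. Srebf2 itself fell by 0.97 ± 0.09 in 14 of 14 lymphomas (limma adjusted p = 4.62e-06), with the largest falls in the list at Idi1 (-1.39 ± 0.27, 9.48e-04), Fdps (-1.37 ± 0.22, 2.52e-04) and Pmvk (-1.001 ± 0.127, 3.10e-05), all enzymes of isoprenoid supply. The other 8, Insig1 (-0.48 ± 0.18, 0.0553) among them, did not pass.

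Among 15 genes of lipid uptake and storage, 5 were higher and 0 lower (median 0.16). The shares over all genes, 15.3% higher and 13.4% lower, stand beside this count and the other counts of the paragraph. The lipid droplet coat gene Plin2 rose by 2.20 ± 0.23 (limma adjusted p = 7.06e-06) and the fatty acid translocase gene Cd36 by 1.78 ± 0.27 (1.20e-04), each in 14 of 14 lymphomas, and the fatty acid binding protein gene Fabp4 rose by 1.04 ± 0.36 (0.0400). Pparg, the nuclear receptor that acts upstream of LXRα in macrophages, was dim (3.76 in ADR and 3.73 in untreated cultures). Of 8 lipoprotein receptor genes Lrp1, a receptor for Apoe, rose by 1.397 ± 0.230 in all 14 (2.70e-04), and Vldlr, a target of Mylip, did not pass (0.53 ± 0.27, 0.160). None of 8 partners of Lpl passed, the inhibitor gene Angptl4 (0.35 ± 0.22, 0.282) included. In the family of Lpcat3, Lpcat1 fell in 14 of 14 by 0.52 ± 0.09 (2.59e-04), and Agpat4 (0.48 ± 0.12, 0.00746) and Agpat2 (0.35 ± 0.12, 0.0367) rose among 11 genes.

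**Figure D5:**
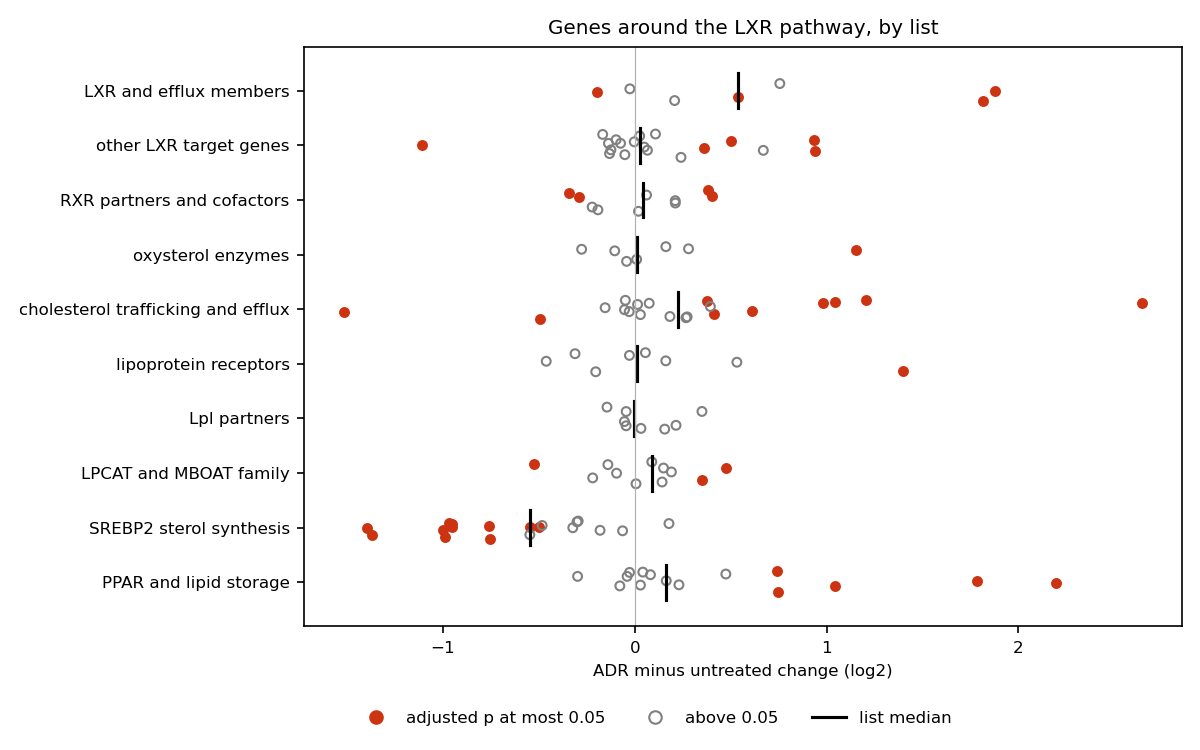
ADR minus untreated change (log2) of each measured gene in the member list and 9 related lists, with filled points for genes past the limma threshold and a bar at each list median. The sterol synthesis list lies to the left (median -0.55), and the filled points of lipid storage all lie to the right.

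The genes whose 14 changes were most like those of each member were looked up among the 8814 genes with a mean of at least 6, as a description with no test. For Lpl they were Clec4a3, a myeloid lectin receptor (r = 0.89), the immune cell adaptor Fyb (0.87) and Adgre1 itself (0.86). For Abca1 they were Mdfic (0.90), the sphingosine 1-phosphate receptor S1pr2 (0.88) and Tnfaip2 (0.86), and these 3 had r between 0.53 and 0.60 with Col1a2. The nearest to Abcg1 were the protease inhibitor gene Cst3 (0.90), Tesk1 (0.86) and Plekho2 (0.85), and to Apoe Pink1 (0.87), Napa (0.82) and Adam10 (0.82). For Nr1h3 they were Tmem183a (0.90), Kctd14 (0.87) and Nup107 (0.83). Nr1h3 was dim, and its change of 0.74 in 9584 stood apart from the rest, which lay between -0.32 and 0.20. Its r values may therefore rest largely on 1 lymphoma, and they were not computed without 9584.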

How the data were processed

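The deposited log2 values of 45101 probe sets on 28 arrays were used as the authors made them; per the submitters' processing notes they come from RMA and Partek 6.5, and the genome build is not given in the sources used here. RMA normalizes between arrays, and low signals have compressed changes. Of the probe sets 34945 had 1 gene in the annotation supplied for the array (symbols updated through RefSeq), 932 had several and 9160 had none listed. For each of 18193 genes the probe set with the highest mean was used. Arrays of 1 lymphoma are paired by the labels, and their deviations from the group means correlated at r from 0.27 to 0.61, against a median of -0.08 between lymphomas. In 10 of the 14 pairs each array was the other's best match in the opposite group, and in the rest it was not.

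Changes were fitted with limma 3.58.1 in R 4.3.3 with lymphoma as a block. P-values measure the spread between lymphomas. Correlations used 100000 permutations, two-sided, adjusted over 14 relations in each of 2 families (changes and untreated levels). On simulated data for the 14 pairs and 18193 genes the fit recovered 76.1%, 91.0% and 100% of genes changed by 0.5, 1 and 2, with 7 false among 185 calls. The simulated noise was independent between genes and few genes were changed, whereas the real fit called 2790 genes higher and 2435 lower. These rates therefore may not carry over to the real data. Members and lists were chosen with earlier results of these data known. Named are all members, Adgre1 and Col1a2, the 3 largest called changes of each related list (not of the cell type marker lists), 10 genes in any case (8 measured), and the 3 most similar genes. Npc2, Lipa, Scarb1, Cd5l, Fasn, Hdac3, Srebf2, Insig1, Angptl4, Cd163, Mrc1, Mertk, C1qa, C1qb, C1qc, Lyz2, Cd68, S100a4, Cd22, Cd79a, Cd79b, Ebf1, Pax5, Ms4a1, Blnk, S100a8, Camp, Eif2s3y and Kdm5d were named after their values were seen. Figures used matplotlib 3.10.9.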

Additional observations from a re-analysis of the deposited data

How the results depend on the processing

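The direction and call of Abca1 and Lpl held in each of 14 fits that left out 1 lymphoma (1.63 to 1.97 and 1.71 to 2.10), and with a random block, other probe set rules, a trend, quantile normalization or median centring. In the same 14 fits Abcg1 ran from 0.45 to 0.65, Apoe from 0.61 to 0.94, Mylip from 0.16 to 0.30, Lpcat3 from -0.24 to -0.17 and Nr1h3 from -0.084 to -0.0033, and 2 to 4 members were called higher and 0 to 1 lower. Abcg1 lost its call with no replicate block (0.54, limma adjusted p = 0.131), with the mean of its probe sets (0.43), by its second probe set (0.33), without 1570 (0.53), without 403 and 5560 (0.58) and without 2581 and 2949 (0.56). The missing block changed no other member's call, while over all genes 1933 were called higher and 1723 lower, against 2790 and 2435 with it. Lpcat3 lost its call without 1570 (-0.18), without 403 and 5560 (-0.19) and without 2581 and 2949 (-0.18), so that 0 members were lower in each. Apoe gained a call among genes with a mean of at least 6 (0.76, adjusted p = 0.0359), where fewer genes were tested and Nr1h3 was not.

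Within the 11 lymphomas of the earlier series Apoe (1.01) and Mylip (0.36) gained a call and Lpcat3 (-0.20) lost it, with 5 members higher and 0 lower. Within the 3 others Abca1 (0.78), Lpl (2.41) and Lpcat3 (-0.18) lost theirs and Abcg1 turned to -0.089, with 0 members called, in a fit of 3 pairs that called 1 gene in all. At no Col1a2 change Abca1 (0.78), Abcg1 (0.097) and Lpcat3 (-0.34) were without a call, and 1 member was higher and 0 lower. At no Adgre1 change Abca1 (1.19), Abcg1 (0.46) and Lpcat3 (-0.38) were without a call and Lpl turned to -0.90, with 0 members called. With both covariates Abca1 (-0.36), Abcg1 (-0.16) and Lpl (-0.59) turned, Lpcat3 (-0.62) lost its call, and 0 members and 0 of all genes were called by limma. The covariate fits extrapolate below the measured marker changes, and the causes of these shifts were not tested. Signal over background limits Nr1h3 and the dimmer Abca1 probe sets.
The r values on either side of the gap in the Adgre1 changes and the search for the shared promoter letters were added after seeing the data.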
